A study of Mus musculus with 1 sample.

Results

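Genes that copy DNA and divide chromosomes were measured in surface epithelium of the ovary, taken from wild-type mice that were 3 months old. Total RNA of these cells was hybridised to 1 Affymetrix mouse expression array, with no allele or agent named for the sample. The series design names 3 mouse genotypes, and only the wild-type array was analysed here, so conditions were not compared, nothing was tested and replicate error is unknown. How many mice gave the cells, and whether the cells were cultured, the labels do not say. The set holds 59 genes of replication and mitosis, of the 18193 genes that the array measured with probe sets of 1 gene symbol each. They were chosen by name from textbook function, and all probe sets paired with such a gene alone, 140 in number, were used. Of the 59 genes 26 act in replication and 33 in mitosis. In RNA of a cell preparation as a whole, fewer dividing cells and less RNA per dividing cell cannot be told apart.

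A cell licenses its replication origins in G1 by loading the MCM helicase, fires them in S phase, and separates the copied chromosomes on the spindle in M phase. Most of these genes are silent or low in resting cells and are transcribed in waves as a cell cycles. Genes of replication are commonly driven by E2F factors, and genes of mitosis by complexes that bind the cell cycle genes homology region, or CHR, often with an adjacent CCAAT box bound by NF-Y. The ovarian surface epithelium is a simple mesothelial layer over the ovary, which divides to close the wound that ovulation leaves.

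The preparation carried the markers of that layer. All 10 surface epithelial and mesothelial markers were above background, among them Krt7 at an intensity of 8204, Krt8 at 3172 to 4573 over 3 probe sets, and Krt18 at 3377. A value counted as above background if it was over 46.5. This limit is the 95th percentile among 126 probe sets of gene families that an ovary is not known to use (keratin-associated proteins and olfactory, taste and vomeronasal receptors), whose median was 13. Genes used as markers of other cells were above background as well. Of the fibroblast markers 6 of 6 were above the limit at 307 to 29972, of the macrophage markers 5 of 6 at up to 527, and of the granulosa cell markers 4 of 7 at up to 1438. The granulosa cell share was 57.1%, against 62.8% of all genes, and the median of these 7 markers was 58. Endothelium had 1 of 7, at 1813, with the brightest values of the other 6 at 11 to 23. Lymphocytes had 1 of 5 and oocytes 0 of 9, with the highest oocyte marker at 42. Which cells carried these marker transcripts was not tested. The part of any other cells in the levels of the replication and mitosis genes was not tested either. Control probe sets read 24792 at the 3′ end, 16886 in the middle and 16073 at the 5′ end of beta-actin, and 20207, 20490 and 21516 for Gapdh in the same order.

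By their brightest probe sets, nearly all of the replication and mitosis genes were above background in these cells. The brightest probe set exceeded the limit for 55 of 59 genes, or 93.2%, against 62.8% of all genes on the array. By the dimmest probe set of each gene the count was 29 of 59 (49.2%), against 39.7% of all genes, so the number above background depends on which probe set stands for a gene. With the brightest, of the replication genes 23 of 26 passed and of the mitosis genes 32 of 33. The 4 genes that did not pass were Cdc6 and Cdc45 of origin licensing and firing, Tyms of thymidylate synthesis and Ndc80 of the kinetochore. Their brightest values were 39 for Cdc6, 44 for Cdc45, 27 for Tyms and 43 for Ndc80, so 3 of the 4 lay 0.08 to 0.25 below the limit on the log2 scale. Just above the limit were Orc1 at 57, Mcm10 at 60, Ttk at 61 and Gins1 at 71. Aurkb at 76, Espl1 at 82 and Kif11 at 87 followed. These 7 genes, or 11.9% of the 59, passed by less than 2-fold, against 8.61% of all genes.

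**Figure D1:**
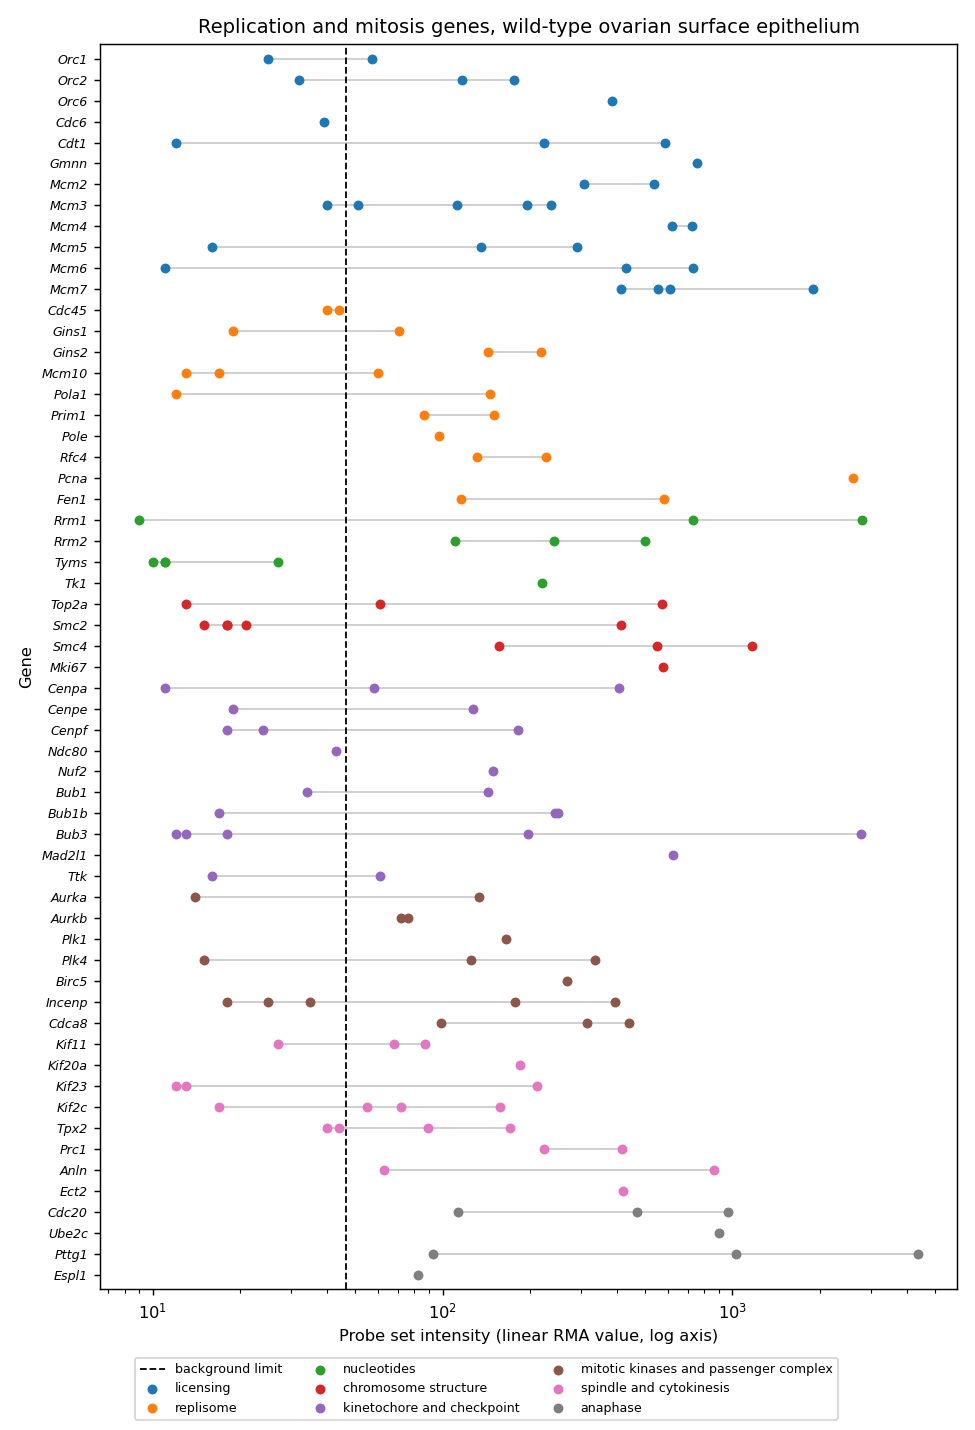
Intensity of every probe set of the 59 genes (points, log axis) in the wild-type array, coloured by role, with a grey line from the lowest to the brightest probe set of a gene and the background limit of 46.5 dashed. Only Cdc6, Cdc45, Tyms and Ndc80 have every point left of the limit, and 26 genes have points on both sides of it.

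The genes were seldom among the dimmest of the array, and among the brightest about as often as other genes. They had a median of 2 probe sets each, against 1 over all genes, and by default the brightest set the level. The medians and shares in this paragraph were not matched for that number. The median level of the 59 genes was 250 (7.97 on the log2 scale), against 133 (7.06 on the log2 scale) over all genes. By the dimmest probe sets the median of the 59 genes was 5.43 on the log2 scale, below the limit of 5.54. By the brightest, of the 59 genes 46 lay above the median of all genes, or 78.0% against 50% of all genes. Above the 75th percentile of all genes, an intensity of 578, there were 15 of 59, or 25.4% against 25%. Above the 90th percentile, an intensity of 1583, there were 5, or 8.47% against 10%. Both of these upper shares were close to those of all genes. The 5 genes above that percentile were Mcm7, Pcna, Rrm1, Bub3 and Pttg1. For Mcm7, Bub3 and Pttg1 the brightest probe set has an identifier that marks probes shared between transcripts. Affinity varies from probe set to probe set, so a gene's place among these values is that of its probe set and not a rank of transcript amounts.

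**Figure D2:**
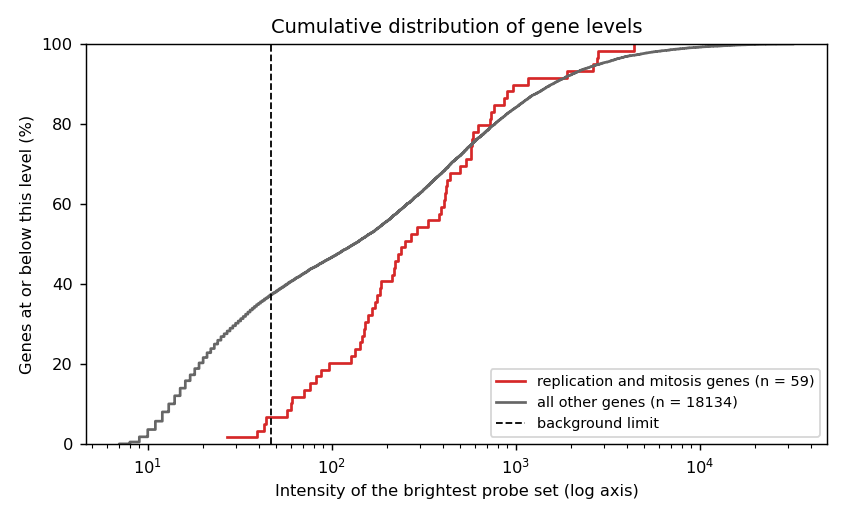
Cumulative share of genes (per cent) by the intensity of their brightest probe set (log axis) for the 59 replication and mitosis genes and for the 18134 other genes. The curve of the 59 genes starts at 27 and lies below the other curve at low levels, with medians of 250 and 132, and the 2 curves meet near the 75th percentile.

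The share above background depends on how many probe sets a gene has. Among genes with 1 probe set, 14 of 16 replication and mitosis genes were above the limit (87.5%), against 47.2% of other genes. With 2 probe sets the counts were 16 of 17 (94.1%) against 71.7%, and with 3 probe sets 18 of 18 (100%) against 82.8%. With 4 or more, 7 of 8 passed (87.5%) against 90.2%, which is no higher than among the other genes. Taken over single probe sets, 95 of the 140 were above the limit, or 67.9%, against 55.1% of all probe sets with 1 symbol.

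**Figure D3:**
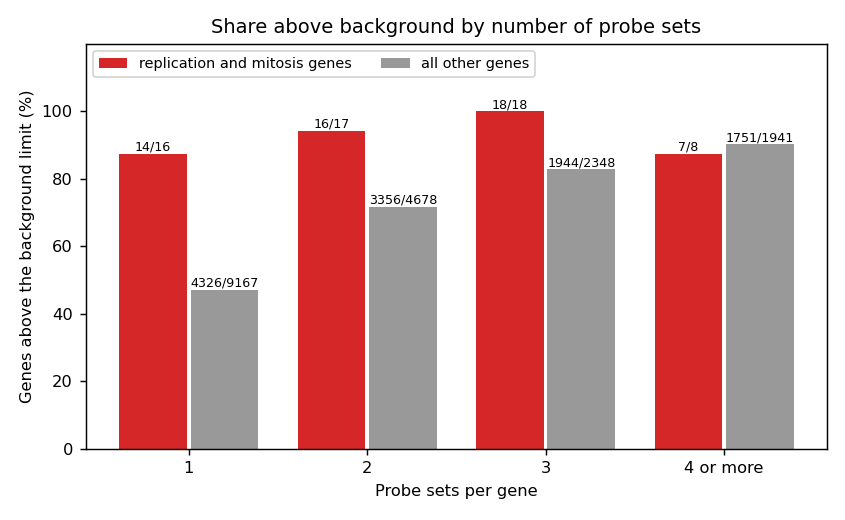
Share of genes above the background limit (per cent) by number of probe sets per gene, for replication and mitosis genes (red) and all other genes (grey), with counts above the bars. The red bar is higher for genes with 1, 2 or 3 probe sets, and slightly lower for those with 4 or more.

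Promoter windows of the replication genes more often held E2F letters, and those of the mitosis genes CHR letters. RefSeq windows of build GRCm38.p6, from 250 bases before to 50 bases after a start, were at hand for 49 of the 59 genes and for 17442 other protein-coding genes. They were searched on both strands for E2F letters (TTCCCGC or TTGGCGC), for CHR letters (TTTGAA or TTCGAA) and for the CCAAT box (CCAAT). Only exact matches of these letters were counted, so a window without them is not shown to lack a binding site. E2F and CCAAT matches can share letters, since an A before TTGGCGC makes a CCAAT box on the other strand and CAAT after TTCCCGC makes one on the same strand. Matches of the 2 motifs shared at least 1 letter in 3 of the 49 genes. The 8 windows below are shown because they carry the split between replication and mitosis, or belong to genes that were below the limit, and capitals mark every match of these motifs. The window of Tyms, also below the limit, held no match and is not among the 8. In Cdc6, Mcm6 and Pola1 the capitals include E2F letters, and in the remaining 5 they include CHR letters.
Cdc6, chr11:98907901-98908200, plus strand: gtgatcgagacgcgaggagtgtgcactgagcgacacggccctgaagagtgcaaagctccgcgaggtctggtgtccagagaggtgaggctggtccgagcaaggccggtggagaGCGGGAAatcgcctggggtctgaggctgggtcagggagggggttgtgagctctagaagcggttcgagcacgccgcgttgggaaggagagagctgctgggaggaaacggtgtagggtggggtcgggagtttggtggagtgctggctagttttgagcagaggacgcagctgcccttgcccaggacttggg
Mcm6, chr1:128359656-128359955, minus strand: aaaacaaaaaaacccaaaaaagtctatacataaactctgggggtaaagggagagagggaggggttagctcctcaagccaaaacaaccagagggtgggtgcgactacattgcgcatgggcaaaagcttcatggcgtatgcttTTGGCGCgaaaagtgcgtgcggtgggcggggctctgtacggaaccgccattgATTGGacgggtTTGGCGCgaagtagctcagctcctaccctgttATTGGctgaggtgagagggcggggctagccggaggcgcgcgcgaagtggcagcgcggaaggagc
Pola1, chrX:93632106-93632405, minus strand: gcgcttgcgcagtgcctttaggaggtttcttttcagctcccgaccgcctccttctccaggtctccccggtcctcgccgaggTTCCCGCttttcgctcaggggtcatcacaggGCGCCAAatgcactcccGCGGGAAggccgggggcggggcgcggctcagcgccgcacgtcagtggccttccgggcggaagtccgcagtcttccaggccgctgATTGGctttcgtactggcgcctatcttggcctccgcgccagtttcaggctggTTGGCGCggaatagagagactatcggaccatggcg
Cdc45, chr16:18811923-18812222, minus strand: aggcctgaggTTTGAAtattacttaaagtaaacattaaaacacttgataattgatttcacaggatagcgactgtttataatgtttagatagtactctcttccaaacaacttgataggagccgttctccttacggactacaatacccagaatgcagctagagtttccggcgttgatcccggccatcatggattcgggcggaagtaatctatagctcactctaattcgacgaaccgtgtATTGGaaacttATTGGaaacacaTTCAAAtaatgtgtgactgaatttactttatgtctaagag
Ndc80, chr17:71526808-71527107, minus strand: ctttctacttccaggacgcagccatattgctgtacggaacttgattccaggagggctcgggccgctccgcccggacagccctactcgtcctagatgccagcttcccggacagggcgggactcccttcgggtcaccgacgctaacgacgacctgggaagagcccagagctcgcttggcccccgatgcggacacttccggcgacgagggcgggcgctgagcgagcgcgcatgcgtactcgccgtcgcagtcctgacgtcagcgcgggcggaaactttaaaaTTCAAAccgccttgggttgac
Cdc20, chr4:118437294-118437593, minus strand: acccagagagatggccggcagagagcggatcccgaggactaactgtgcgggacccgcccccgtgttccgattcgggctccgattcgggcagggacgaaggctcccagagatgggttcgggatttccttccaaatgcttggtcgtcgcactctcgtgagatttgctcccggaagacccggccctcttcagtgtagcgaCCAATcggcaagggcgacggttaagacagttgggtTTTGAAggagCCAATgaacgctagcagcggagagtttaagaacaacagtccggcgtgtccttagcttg
Plk1, chr7:122159185-122159484, plus strand: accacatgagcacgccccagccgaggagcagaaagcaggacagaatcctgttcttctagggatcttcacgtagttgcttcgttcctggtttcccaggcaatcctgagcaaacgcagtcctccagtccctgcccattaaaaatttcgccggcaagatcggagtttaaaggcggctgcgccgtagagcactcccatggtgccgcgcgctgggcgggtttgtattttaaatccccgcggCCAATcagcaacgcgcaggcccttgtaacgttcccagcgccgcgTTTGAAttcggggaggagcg
Ube2c, chr2:164769679-164769978, plus strand: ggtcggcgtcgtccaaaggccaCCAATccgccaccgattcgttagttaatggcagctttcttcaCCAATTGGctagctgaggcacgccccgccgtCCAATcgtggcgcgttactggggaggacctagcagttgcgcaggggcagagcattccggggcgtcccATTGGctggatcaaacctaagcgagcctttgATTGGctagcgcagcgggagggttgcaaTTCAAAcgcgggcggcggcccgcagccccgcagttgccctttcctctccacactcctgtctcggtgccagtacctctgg

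The counts differed between the groups, and no test was made of them. E2F letters were found in 10 of 21 replication genes (47.6%), in 3 of 28 mitosis genes (10.7%) and in 9.90% of all other genes. The 10 replication genes were Cdc6, Cdt1, Mcm3, Mcm5, Mcm6, Mcm7, Pola1, Prim1, Rfc4 and Rrm1, and the 3 mitosis genes Ect2, Mki67 and Plk4. CHR letters ran the other way, with 4 of 21 replication genes (19.0%), 22 of 28 mitosis genes (78.6%) and 20.1% of all other genes. The mitosis genes without them were Birc5, Cenpe, Mad2l1, Nuf2, Plk4 and Pttg1. The CCAAT box was found in 71.4% of both groups, 15 of 21 and 20 of 28, against 42.2% of all other genes. Birc5, Mad2l1, Nuf2, Pttg1, Tk1 and Tyms had none of the 3 motifs, or 12.2% of the 49 genes against 42.4% of all other genes. Windows of Gmnn, Mcm4, Gins1, Gins2, Pole, Smc4, Incenp, Aurkb, Kif20a and Tpx2 were not analysed here.

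The place of the matches also differed. Within 50 bases of the start, a distance chosen after the positions were seen, CHR letters lay in 20 of 28 mitosis genes (71.4%), in 1 of 21 replication genes (4.76%) and in 4.97% of all other genes. Counted to the first letter of the match in the window as printed, it began in Cdc20 18 bases before the start, in Ube2c 29 bases before it, in Plk1 30 bases after it and in Ndc80 29 bases after it. E2F letters lay as near in 7 of 21 replication genes (33.3%), 1 of 28 mitosis genes (3.57%) and 3.84% of all other genes. At any distance the Pola1 window held 4 E2F matches, the most of any window shown. Of these only the match 15 bases after the start lay within 50 bases of it. Median GC content was 58.0% in windows of the 49 genes and 56.3% in those of the other genes. Among windows of 50.7% to 64.0% GC, CHR letters were in 15 of 26 of these genes (57.7%) and in 17.8% of other genes, and without regard to GC in 26 of 49 (53.1%) and in 20.1%. E2F letters were in 5 of the 26 genes in that band (19.2%) and in 11.1% of other genes, a smaller gap than the 13 of 49 (26.5%) and 9.90% without regard to GC. The CCAAT box was in 19 of the 26 (73.1%) and in 45.1% of other genes.

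Genes above and below the limit were also counted by motif, with no test, since only 4 lay below it. Of the 26 genes with CHR letters 24 were above background, as were 21 of the 23 without them. Of the 13 with E2F letters 12 were above background, as were 33 of the 36 without. Of the 35 with a CCAAT box 34 were above background, as were 11 of the 14 without, so 3 of the 4 genes below the limit lacked it. Of the 4 genes below the limit, Cdc6 had an E2F match, Cdc45 and Ndc80 had CHR matches, and Tyms had no match of any of the 3 kinds.

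**Figure D4:**
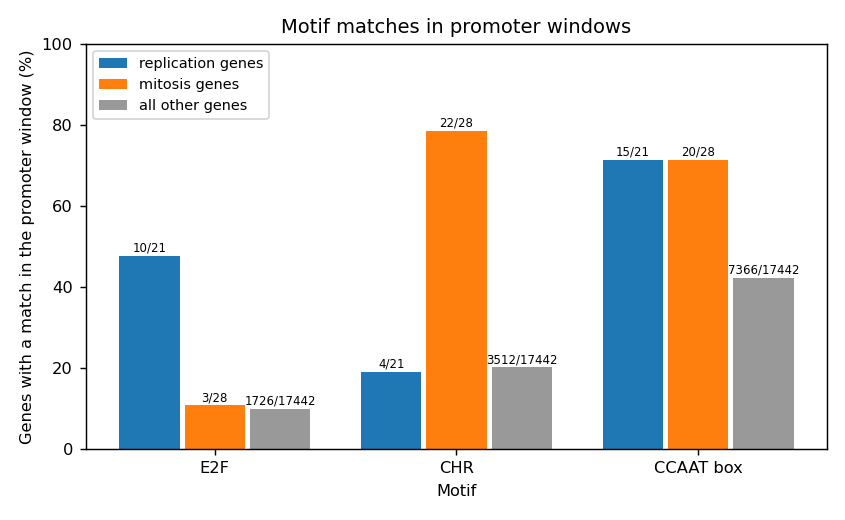
Share of genes (per cent) with at least 1 match of each motif in their promoter windows, for replication genes (blue), mitosis genes (orange) and all other genes (grey), with counts above the bars. E2F matches stand highest in replication genes at 47.6% and CHR matches in mitosis genes at 78.6%, while the CCAAT box is at 71.4% in both.

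Origin licensing genes were above background in 11 of 12 cases (91.7%). This count, and those by process, complex and list below, stand beside 62.8% of all genes. Among other genes with 2, 3 and 4 or more probe sets the shares were 71.7%, 82.8% and 90.2%. Each group is small, and none of the counts was tested against these shares. Orc1, Orc2 and Orc6 are subunits of the origin recognition complex, which marks where replication may begin. Orc1 had 25 and 57, on both sides of the limit, Orc2 had 32, 117 and 177, and Orc6 had 383. With Orc3, Orc4 and Orc5 added, whose brightest values were 349, 563 and 282, all 6 subunits of the complex were above background. Cdc6 and Cdt1 load the MCM helicase onto that platform. Cdc6 had 39 on its only probe set, 0.25 below the limit on the log2 scale, and its identifier marks several transcripts of the gene. Cdt1 had 12, 224 and 586, with 2 of 3 probe sets above the limit. Gmnn, geminin, which holds Cdt1 inactive after licensing, had 757.

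The 6 genes of the MCM2 to MCM7 ring, the core of the replicative helicase, were all above background. Mcm2 had 307 and 536, Mcm4 had 619 and 727, and Mcm7 had 413, 555, 607 and 1888, so every probe set of these 3 passed. The identifier of the Mcm7 probe set at 1888 marks probes shared between transcripts. For Mcm3, Mcm5 and Mcm6 the probe sets disagreed. Mcm3 had 40 on its lowest and 51, 112, 195 and 237 on the others. Mcm5 had 16 on 1 probe set and 136 and 291 on the others. Mcm6 had 11 on 1 probe set, at the level of background, and 430 and 729 on the others.

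Helicase activation and synthesis genes were above background in 9 of 10 cases. The active helicase is made of Cdc45, the GINS complex and the MCM ring, and 9 of its 11 genes passed. Cdc45 had 40 and 44, and both probe sets lay just below the limit, by 0.08 for the brighter on the log2 scale. In GINS, Gins1 had 19 and 71 and Gins2 had 143 and 218, and Gins4 had 431, while Gins3 had 30 and 34 and was not above the limit. Mcm10, which helps to start the helicase, had 13, 17 and 60, so 1 of 3 probe sets passed, and only by 0.37 on the log2 scale.

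The polymerases and their clamp were above background. Pola1, the catalytic subunit of DNA polymerase alpha, had 12 and 146, and Prim1, the primase that lays the RNA primer, had 86 and 151. All 4 genes of polymerase alpha and primase passed, with brightest values of 126 to 183. Pole, the catalytic subunit of the leading-strand polymerase epsilon, had 97, and all 4 genes of that enzyme passed. Rfc4, a subunit of the clamp loader, had 131 and 228, and all 5 clamp loader genes passed, with brightest values of 200 to 420. Pcna, the sliding clamp, had 2613 on its only probe set, 5.81 above the limit on the log2 scale. Fen1, the nuclease that trims Okazaki fragments, had 116 and 580.

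Of the 4 genes of nucleotide supply 3 were above background. Rrm1, the large subunit of ribonucleotide reductase, had 9 on 1 probe set, at the level of background, and 730 and 2786 on the others. Rrm2, the small subunit that limits the enzyme in S phase, had 110, 242 and 499, all above the limit. Tk1, the thymidine kinase of dividing cells, had 220. Tyms, thymidylate synthase, had 10, 11, 11 and 27, and all 4 probe sets were below the limit. A further probe set paired with both Tyms and its pseudogene is outside these counts and had 400.

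All 4 genes of chromosome structure were above background. Top2a, the topoisomerase that untangles sister chromosomes, had 13, 61 and 569. Smc2 and Smc4 are the ATPase core of condensin, which compacts mitotic chromosomes. Smc2 had 411 on 1 probe set and 15, 18, 18 and 21 on the other 4, so its place above the limit rests on 1 of 5 probe sets. Smc4 had 156, 547 and 1168, all above the limit. All 5 genes of condensin I passed, among them Ncapg at 49 on its brighter probe set, just above the limit. Mki67, which coats mitotic chromosomes and is used as a marker of cycling cells, had 574.

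Genes of the kinetochore and the spindle checkpoint were above background in 9 of 10 cases. Cenpa, the histone that defines the centromere, had 11, 58 and 407. Cenpe, a kinetochore motor, had 19 and 127, and Cenpf, a kinetochore protein of late cycle, had 18, 24 and 182. Ndc80 and Nuf2 form a pair that holds microtubules at the kinetochore. Ndc80 had 43 on its only probe set, 0.11 below the limit on the log2 scale, while Nuf2 had 149. The partners Spc24 and Spc25, named to complete the complex, had 113 and 249 on their brightest, so 3 of the 4 genes of the complex passed.

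The 5 genes of the checkpoint that delays anaphase were all above background. Bub1, a kinase at the kinetochore, had 34 and 143, and Bub1b, which encodes BubR1 of the inhibitory complex, had 17, 244 and 250. Bub3, which brings both to the kinetochore, had 12, 13 and 18 on 3 probe sets and 197 and 2766 on the other 2. The brightest probe set of Bub3 has an identifier that marks probes shared between transcripts. Mad2l1, the inhibitor of anaphase onset, had 625. Ttk, the kinase that starts the checkpoint, had 16 and 61, the brighter 0.39 above the limit on the log2 scale.

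All 7 mitotic kinase and passenger complex genes were above background. Aurka, a kinase of spindle poles, had 14 and 134. The 4 genes of the passenger complex, which corrects attachments and guides cytokinesis, all passed. In it Aurkb, the kinase, had 72 and 76, and Birc5, survivin, had 268. Incenp, the scaffold, had 18, 25, 35, 178 and 392, so 2 of 5 probe sets passed. Cdca8, borealin, had 99, 316 and 441. Plk1, a kinase needed from mitotic entry to exit, had 166, and Plk4, the kinase of centriole duplication, had 15, 125 and 335.

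All 8 genes of the spindle and of cytokinesis were above background. Kif11, the motor that pushes spindle poles apart, had 27, 68 and 87. Kif2c, which depolymerises microtubules at centromeres, had 17, 55, 72 and 158. Tpx2, the activator of Aurka on the spindle, had 40 and 44 just below the limit and 89 and 171 above it. Kif20a and Kif23 are motors of the central spindle. Kif20a had 185, and Kif23 had 12 and 13 on 2 probe sets and 212 on the third. Prc1, which bundles the central spindle, had 224 and 417. Ect2, which switches on the contractile ring, had 420, and Anln, anillin, a scaffold of that ring, had 63 and 860.

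The 4 genes of anaphase were above background on every probe set. Cdc20, the activator of the anaphase-promoting complex, had 113, 469 and 966. Ube2c, an E2 enzyme of that complex, had 900. Pttg1, securin, had 93, 1027 and 4381, and its brightest probe set was 6.56 above the limit on the log2 scale. The identifier of the Pttg1 probe set at 4381 marks probes shared between transcripts, and that at 1027 marks several transcripts of the gene. The probe set at 93 has no such mark and lay 1 above the limit on the log2 scale. Espl1, separase, the protease that securin restrains, had 82, 0.82 above the limit on the log2 scale. All 12 measured subunits of the anaphase-promoting complex passed as well, with brightest values from 582 to 4416.

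Probe sets of the same gene often disagreed, and theirs is the only spread that 1 array offers. Of 43 genes with several probe sets, 26 had them on both sides of the limit, or 60.5% against 46.7% of all genes with several. For 15 of the 43 all probe sets were above the limit, and for 2, Cdc45 and Tyms, none was. Over all 9010 genes with several, the counts were 2888 and 1918. A gene with no probe set above the limit cannot have them on both sides. The shares on both sides therefore also depend on level, and do not measure disagreement alone. On the log2 scale the SD between a gene's probe sets had a median of 1.47, against 1.39 over all genes, with values below the limit, whose size is not well defined, included in both. The 2 probe sets of Aurkb, both above the limit, had an SD of 0.06. Probe sets whose annotation names a RefSeq sequence were above the limit in 23 of 27 cases (85.2%), and those with another GenBank sequence in 72 of 113 (63.7%). Over all genes 3478 of 5897 and 15763 of 29048 (54.3%) passed. The brightest probe set was an unmarked one in 31 genes, and carried a mark for several transcripts or for shared or possibly cross-hybridising probes in 28. The same count over all genes was not made. Among all probe sets with 1 symbol, those with these marks were above the limit in 72.3%, 76.9% and 64.6%, in that order. Unmarked ones were above it in 50.3%.

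Other genes of the same processes gave a share like that of the 59. Of 118 further genes measured, 113 were above background (95.8%). The median level was 250 for the 59 genes and 242.5 for the 118. By the dimmest probe sets 29 of the 59 passed (49.2%), against 54 of the 118 (45.8%). Without marked identifiers 45 of 49 (91.8%) and 90 of 109 (82.6%) passed. With the mean of the probe sets the shares were 78.0% and 82.2%, so the likeness varies with the setting. Counts by process, with the brightest probe sets, follow the order used above. Those above the limit were 8 of 8 licensing genes, 22 of 23 replisome genes, 5 of 5 nucleotide genes and 13 of 13 chromosome genes. In mitosis they were 24 of 25 kinetochore genes, 8 of 9 kinase-related genes, 16 of 18 spindle genes and 17 of 17 anaphase genes. The 5 that were not above it, named after their values were seen, were Gins3 at 34, Ska3 of the kinetochore at 34, the histone kinase Haspin at 32 and the spindle motors Kif14 at 12 and Kif15 at 43.

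The factors that govern the transcription of these genes were mostly above background, in 17 of 19 cases (89.5%). The share was 62.8% over all genes, and 71.7% among other genes with 2 probe sets, the median number of these factors. E2f1, an activator of S phase genes, had 102 as the highest of 3 values, and E2f3, another activator, had 121 and 331. E2f2 had 16 and 42 and was not above the limit, nor was Mybl2, a partner at mitotic promoters, at 23 and 36. These 2 were the only ones of the 19, and Mybl2 was named after its value was seen. Cyclins and their kinases were above background in 11 of 11 cases. Ccna2, the cyclin of S phase and G2, had 222 and 429, Ccnb2, a mitotic cyclin, had 428, and Ccnd1, a G1 cyclin, had 226 on the brightest of 3. Of the inhibitors of these kinases 6 of 7 passed, and the other, Cdkn2a, named after its value was seen, had 28. Cdkn1a had 1107 and 1980, Cdkn1b had 20 and 1686, and Cdkn1c had 48, just above the limit. Transcripts of division and of its inhibitors were thus measured in the same RNA, and which cells carried which was not measured.

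**Figure D5:**
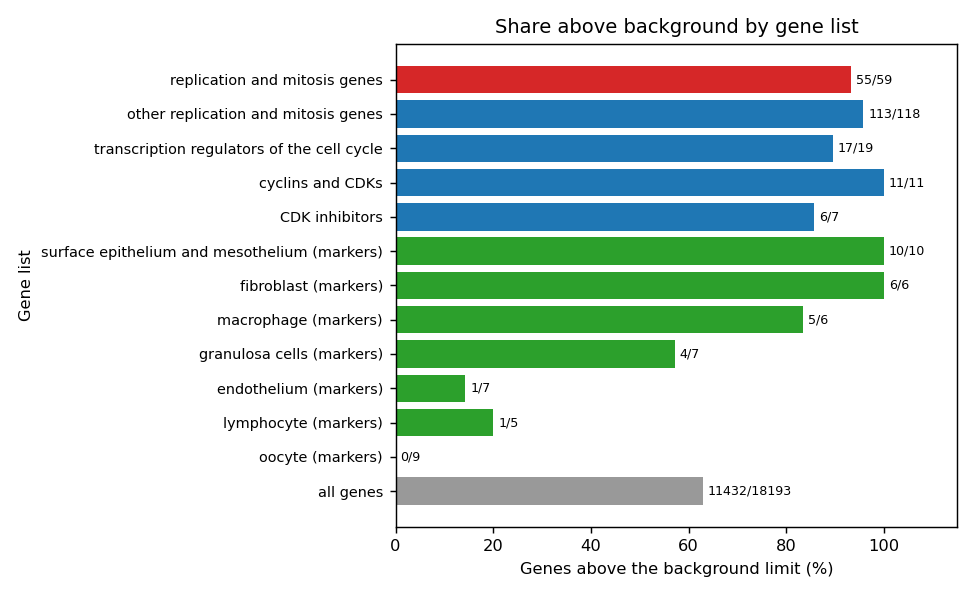
Share of genes above the background limit (per cent) in the 59 replication and mitosis genes (red), related cell cycle lists (blue), cell type marker lists (green) and all genes (grey), with counts beside the bars. The 59 genes stand at 93.2%, the other replication and mitosis genes at 95.8% and all genes at 62.8%, while the oocyte markers stand at 0 of 9.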

How the data were processed

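The labelled cRNA came from 5 ug of total RNA, per the labels' protocols. The deposited table holds 1 intensity for each of 45101 probe sets, all whole numbers from 6 to 32341 on a linear scale. Per the submitters' processing notes, affy and RMA (background correction, normalization and probe summary) were used. Their versions, the arrays normalized together and the step from log2 to whole numbers are not stated there. RMA draws low values together, and at the limit rounding can shift a log2 value by 0.016.

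Probe sets were named through the platform's annotation, in which 34945 had 1 symbol, 932 several and 9160 none; only the first kind, without 64 control probe sets, was used. All 59 genes matched RefSeq by gene ID with the same symbol. The level of a gene is its brightest probe set. The members, gene lists, motifs and limit were chosen with earlier results of these data known. Of 226 listed genes 4 were matched through synonyms and 9 were not analysed here. All 59 members are named. The first 3 measured genes are named for the transcription regulators, the cyclins and their kinases, the inhibitors and the surface epithelial markers. Of the other replication and mitosis lists, some genes of a member's complex are named. Genes below the limit were named after their values were seen. Markers of the other cell types are given as counts and ranges only. RefSeq promoter windows were searched for motifs, any window of a gene counting. The computations were tested on simulated data and ran in Python 3.11.15 with pandas 2.3.3, NumPy 2.4.6 and, for plots, matplotlib 3.10.9. An array has no read depth, and 1 array leaves the precision of every level unknown.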

Additional observations from a re-analysis of the deposited data

Results flagged for a closer look

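A signal was found in a probe set outside the gene counts. The probe set paired with both Tyms-ps, a pseudogene, and Tyms had an intensity of 400, or 3.10 above the background limit on the log2 scale. The 4 probe sets paired with Tyms alone had 10, 11, 11 and 27, all below the limit of 46.5. Which of the 2 genes gave the signal was not tested.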

How the results depend on the processing

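The number of the 59 genes above background was 55 and stayed between 45 and 59 under 6 of 7 other settings. It was 59 with a limit of 25.5, the 90th percentile, 58 with a background of olfactory and vomeronasal receptors, 52 with genes of other organs, 49 with a limit of 84.8, the 99th percentile, 46 with the mean of the probe sets and 45 of the 49 genes left without marked identifiers. The shares of all genes under these settings were 73.2%, 70.5%, 58.7%, 55.3%, 57.6% and 59.2%. With the dimmest probe set in place of the brightest it was 29 of 59 (49.2%), against 7228 of all genes (39.7%), and 54 of the 118 other replication and mitosis genes. The median level then was 5.43 on the log2 scale, below the limit of 5.54. With the limit raised 2-fold, a setting added after the data were seen, 48 of 59 passed (81.4%) against 54.1% of all genes, and counting the shared probe set for Tyms, likewise added later, gave 56. Cdc45 and Ndc80 were above the limit only with the 90th percentile or with olfactory and vomeronasal receptors, Cdc6 in the same 2 settings, and Tyms only with the 90th percentile or with the shared probe set. The count with probe sets on both sides of the limit was 26 of 43 (60.5%), 22 to 24 of 43 with the other limits, and 21 of the 27 genes left with several probe sets without marked identifiers (77.8%). With genes of 1 promoter window only, also chosen after the data were seen, E2F letters were in 9 of 18 replication genes and CHR letters in 19 of 25 mitosis genes. No paired analysis was possible because there is 1 sample. The number of arrays limits every statement here.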
